A study of Citrullus lanatus with 12 samples.

Results

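Anthers at the mature stage were compared with anthers at the dikaryophase, the stage at which each pollen grain holds a pair of nuclei, in watermelon (Citrullus lanatus). The comparison used 6 of the 12 RNA sequencing libraries of the series, 3 mature and 3 dikaryophase, chosen by their stage labels, and covered all genes of the deposited table. The plants were greenhouse-grown progeny of the variety Xinteda Zhengkang 9. Part of every anther was staged under the microscope, and RNA came from the rest of it. All groups share this plant material and carry no treatment. The 3 tetrad and 3 mononuclear libraries are used only to show where the genes of the comparison stood earlier. The labels give the tissue as flower and do not say whether libraries came from separate plants, so the p-values measure the spread between these samples, which may be technical.

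An anther holds developing pollen inside layers of maternal wall. A microspore released from the tetrad divides unequally into a large vegetative cell, which later grows the pollen tube, and a small generative cell, which gives rise to the sperm. The tapetum, the innermost wall layer, feeds the microspores and supplies material for the pollen coat, and it breaks down by programmed cell death as pollen ripens. Ripe pollen is known to store transcripts for germination, while the wall dries out and opens. RNA of whole anthers mixes all these cells, so fewer cells of a kind and less RNA per cell cannot be told apart in any result below.

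The mature libraries held 65023182, 62414384 and 55347640 reads assigned to genes, and the dikaryophase libraries 62998799, 63204803 and 62663876. A level of 1 CPM (the read count divided by the library's total and multiplied by 1000000) thus stood for 55.3 to 65.0 reads. Of 23440 gene IDs, 17484 reached 1 CPM in at least 3 of the 12 libraries and were tested. The deposited table does not pair IDs with names or functions, so anther and pollen markers could not be checked, gene groups below are defined by their levels alone, and only a few IDs are given. No collection or sequencing batch is labelled. On the called genes dikaryophase replicate 3 lay apart from the other 2 dikaryophase libraries, and mature replicate 3 was more often than the other 2 mature libraries the one nearest to the dikaryophase. Calls with and without these libraries are given.

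Most genes had like levels at both stages, and more of those that changed were lower at maturity. Of the 17484 genes, 90.7% differed by less than 2-fold between the stage means, and the median absolute log2 fold change was 0.22. A gene was called when its Benjamini-Hochberg adjusted p in limma was under 0.05 and its level differed at least 2-fold. This held for 863 genes (4.94% of those tested). Of these, 337 rose in mature anthers (1.93% of those tested) and 526 fell (3.01%). The excess of falls depended on the processing. Rises made up 39.0% of the calls with the deposited values, but 50.4% (451 rises and 444 falls) on a log2(CPM + 1) scale and 53.0% (547 rises and 485 falls) with limma-voom on the recovered reads. Without dikaryophase replicate 3 only 174 rises and 345 falls were called, without mature replicate 1 there were 209 rises, and without mature replicate 2 there were 222.

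**Figure D1:**
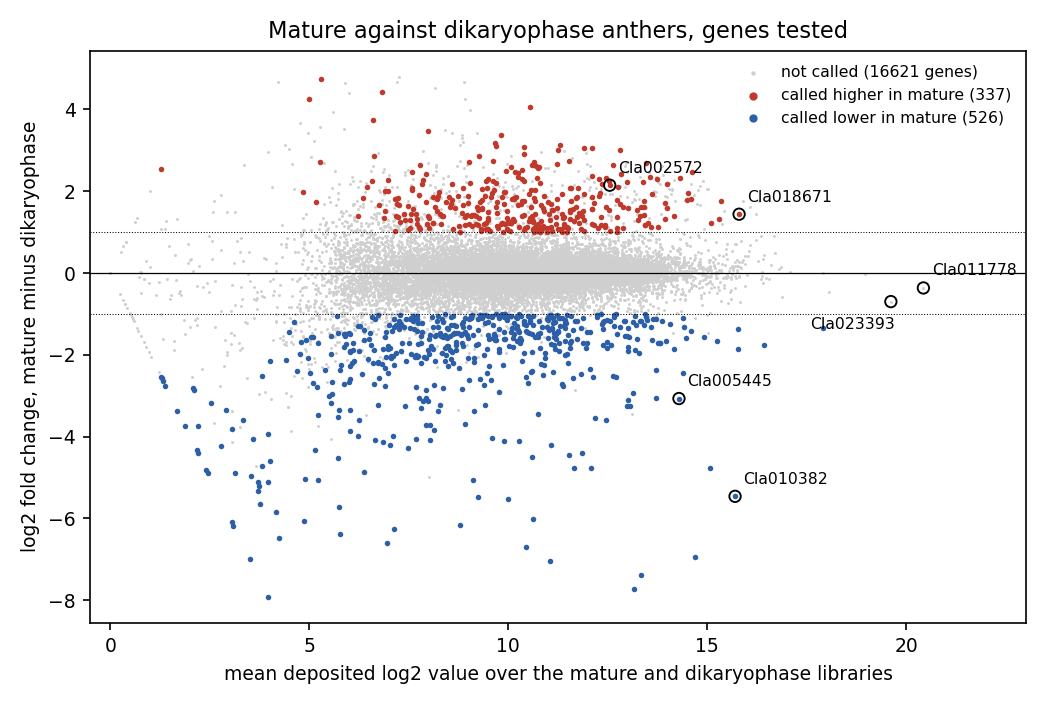
Log2 fold change of each tested gene, mature minus dikaryophase, against its mean deposited log2 value over the 6 libraries, with genes called higher in mature in red (337), called lower in blue (526), uncalled genes in grey and 6 named genes ringed. Falls reach -7.92 on the log2 scale and called rises reach 4.73.

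Falls reached far larger sizes than rises. The median log2 fold change was 1.57 among genes that rose and -1.71 among genes that fell. Between 2-fold and 4-fold lay 254 rises (75.4% of the rises) and 333 falls (63.3% of the falls). Changes of 8-fold or more numbered 15 rises and 99 falls, and changes of 16-fold or more numbered 4 rises and 58 falls. When limma tested directly for a change beyond 2-fold (the treat method), 7 rises and 81 falls passed. The large falls were not all of abundant genes. Of the 99 genes that fell at least 8-fold, 49 had a mean of at least 10 CPM at the dikaryophase and 13 had less than 1 CPM there. With the 6 libraries alone, 8-fold changes numbered 8 rises and 84 falls. With few reads, the pseudocount of 1 in the deposited values draws a fold change towards 0.

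**Figure D2:**
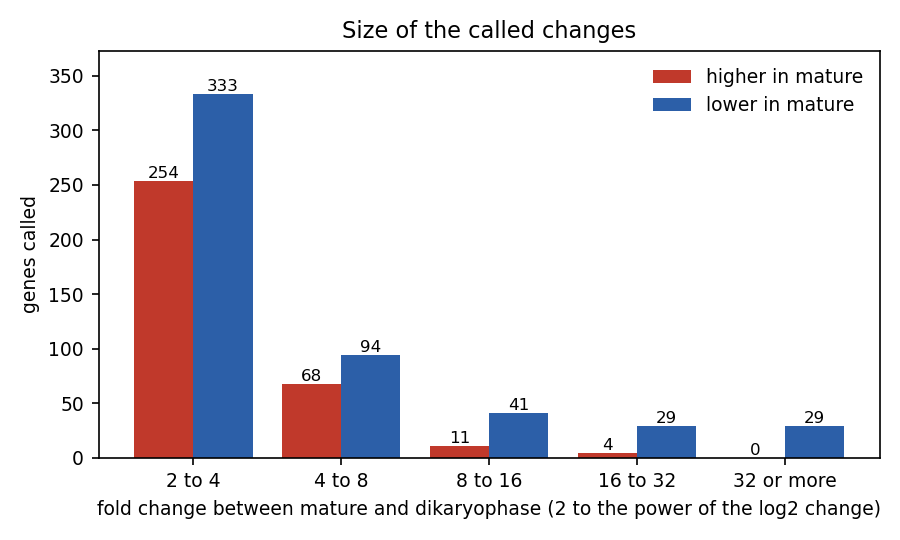
Number of genes called higher in mature (red) and lower in mature (blue) anthers by the size of the fold change between stage means of log2 values. The 58 falls of at least 16-fold stand against 4 rises of that size.

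Genes that fell gave up a large part of the reads. Together the 526 genes took 1.57%, 1.44% and 1.67% of the reads of mature replicates 1, 2 and 3, against 7.32%, 5.92% and 7.45% in dikaryophase replicates 1, 2 and 3. The 337 genes that rose took 3.75%, 3.20% and 3.07% of reads in the mature libraries, against 1.10%, 1.24% and 0.878% in the dikaryophase libraries. The genes were chosen for these differences, so the shares are a description and carry no test. Mature minus dikaryophase, the mean shares differed by -5.34 percentage points for the genes that fell and by 2.27 points for those that rose. The loss was concentrated, with 51.9% of it in 10 genes and 11.7% in a single gene. The gain of the called genes was spread more widely, with 28.6% of it in 10 genes and 4.3% in the leading gene. These concentrations cover only the calls of the fit of 12 libraries. They leave out uncalled genes that gained reads and were not worked out for the 6 libraries alone. The remaining 16621 genes, called in neither direction, gained 3.06 points. Among them, 125 genes called higher with the 6 libraries alone and not with 12 held 1.03% of dikaryophase reads and 3.73% of mature reads. The balance of loss and gain thus depended on the fit. Called from the 6 libraries alone, 379 rises held 1.94% of dikaryophase reads and 6.6% of mature reads. The 414 falls of that fit held 6.26% of dikaryophase reads and 1.34% of mature reads.

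Genes that fell ended at low levels. Their median level was 4.59 CPM at maturity against 16.9 CPM at the dikaryophase, and 125 of the 526 had a mean under 1 CPM at maturity. By library, 137, 148 and 112 of the 526 lay under 1 CPM in mature replicates 1, 2 and 3. Of all 17484 tested genes, 791, 777 and 722 did. Genes that rose had a median of 39.5 CPM at maturity against 12.3 CPM at the dikaryophase, and 271 of the 337 averaged at least 10 CPM at maturity. In the whole table, 11998 to 12366 of 23440 gene IDs reached 10 CPM in a mature library. Both lists were chosen for their difference between the stages, so these levels are descriptions. Loss of every read was rare. Among tested genes, 14 had no read in any mature library and at least 1 in each dikaryophase library, all of them called, and 1 gene showed the opposite pattern. In the whole table these patterns held for 51 and 24 genes, with at most 415 and 69 reads in a library of the other stage. No read allows up to 3 reads in a library, or 0.0461 to 0.0542 CPM in the mature libraries and 0.0475 to 0.0479 CPM in the dikaryophase libraries, for counting error alone.

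A few genes that changed are given in full, by a rule on the size of the gain or loss in reads and on the smallest adjusted p. The rule took only genes whose stages did not overlap. Levels are normalised reads, the deposited values taken out of the log scale. They are compared between libraries and not between genes, since gene lengths are not given.

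Cla010382 lost more reads than any other gene that met the rule. It had 8906, 4008 and 14441 normalised reads in mature replicates 1 to 3, against 604023, 214635 and 339338 in dikaryophase replicates 1 to 3. Every mature library lay far below every dikaryophase library. Its share of all reads averaged 0.0153% ± 0.00945 at maturity and 0.641% ± 0.320 at the dikaryophase (SD, n = 3 each). The log2 fold change was -5.46 ± 0.51 (SE, limma adjusted p = 0.000143), and over 27 other fits the adjusted p ranged between 5.57e-05 and 0.00423. Earlier it had 1375195, 1460878 and 2253609 normalised reads in the mononuclear libraries against 89038, 243221 and 174124 in the tetrad libraries, so its highest level came before the dikaryophase (log2 fold change 3.41 ± 0.51, SE, limma adjusted p = 0.000675).

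Cla005445 had the smallest adjusted p of the genes that fell at least 4-fold. Its mature libraries held 7330, 6700 and 6727 normalised reads, against 66450, 46836 and 62782 in the dikaryophase libraries. The mature values were almost alike, and the lowest dikaryophase value was several times the highest mature one. The log2 fold change was -3.07 ± 0.17 (SE, limma adjusted p = 1.88e-05). It too was higher before, with 116047, 86044 and 139389 normalised reads in mononuclear libraries against 2622, 3038 and 3033 in tetrad libraries. Its mature mean of 6919 ± 356 was thus still above its tetrad mean of 2898 ± 239 (SD, n = 3 each).

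Of the genes that met the rule, Cla018671 gained the most normalised reads. It held 115242, 92265 and 77912 in mature libraries, against 29842, 40578 and 34428 in dikaryophase libraries. The call was weak. The log2 fold change was 1.44 ± 0.40 (SE, limma adjusted p = 0.042), and the adjusted p lay between 0.0507 and 0.126 when any single mature or dikaryophase library was left out, and between 0.0572 and 0.0615 without a tetrad library. Without mononuclear replicate 2, which held 5083 reads against 1387 and 1368 in the other mononuclear libraries, it was 0.000544. The tetrad libraries held 328, 311 and 426 normalised reads, so each later stage in the series lay above the one before it.

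Cla002572 had the smallest adjusted p of the genes that rose at least 4-fold. It had 14560, 11347 and 12145 normalised reads in mature libraries, against 3356, 3289 and 2091 in dikaryophase libraries. Dikaryophase replicate 3 was the lowest of the 6, and no mature value came near the dikaryophase range. The log2 fold change was 2.15 ± 0.17 (SE, limma adjusted p = 5.7e-05). Its earlier course was different from that of Cla018671, with 972, 1196 and 1118 normalised reads in mononuclear libraries against 2068, 1901 and 2007 in tetrad libraries.

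The 2 genes with the most reads did not pass the test. Cla011778 had 1595182, 1526354 and 794960 normalised reads in mature libraries, against 1385313, 1622612 and 1841823 in dikaryophase libraries, and the stages overlapped (log2 fold change -0.37 ± 0.32, SE, limma adjusted p = 0.523). Cla023393 had 745675, 788352 and 425516 in mature libraries, against 1076207, 920010 and 1081294 in dikaryophase libraries. Its stages did not overlap, but the log2 fold change of -0.70 ± 0.54 did not pass (SE, limma adjusted p = 0.458). In both, mature replicate 3 was the lowest of the 6 libraries.

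**Figure D3:**
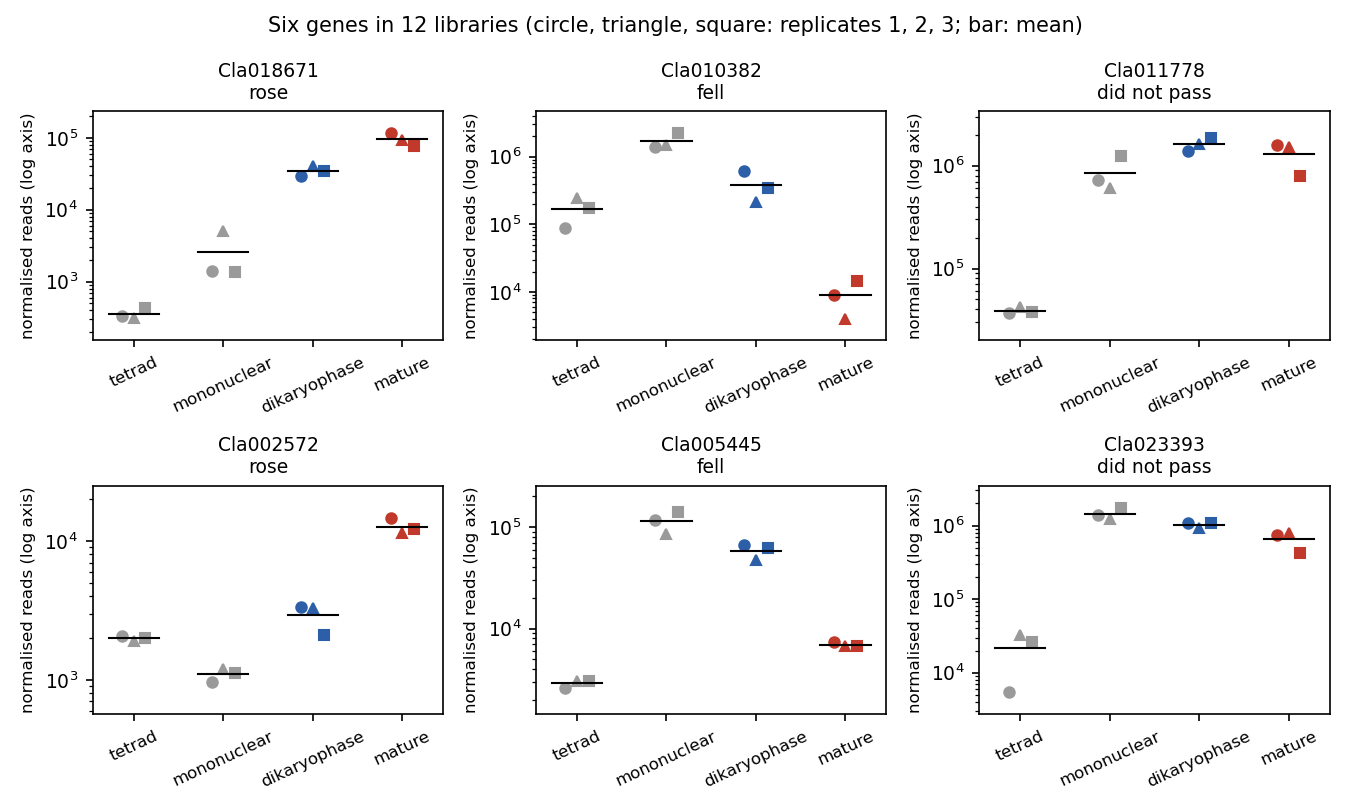
Normalised reads on a log axis in each of 12 libraries for 2 genes that rose (left), 2 that fell (middle) and 2 that did not pass (right) between mature (red) and dikaryophase (blue) anthers, with replicates 1, 2 and 3 as circle, triangle and square and the mean as a bar. Cla010382 and Cla005445 peak in the mononuclear libraries, drawn in grey with the tetrad libraries.

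Ranking genes by their level at a stage favours genes that are higher at that stage, so the next counts are descriptions, to be read beside the 1.93% of all tested genes that rose and the 3.01% that fell. Among the 100 genes with the most reads at maturity, 8 rose and 2 fell, and 84 had an adjusted p that did not pass. Among the 100 with the most reads at the dikaryophase, 13 fell and 0 rose, and 81 did not pass. Of all 17484 tested genes, 1918 had an adjusted p under 0.05, so most genes of any level did not pass. Tested genes were also ranked by mean level over the 12 libraries and cut into 10 groups of equal size. The group with the highest levels held 25 rises and 94 falls, and the one below it held 27 rises and 34 falls. The group with the lowest levels, 0.398 to 2.79 CPM, held 35 rises and 80 falls. Called genes made up 6.80% of the group with the highest levels, 6.24% to 6.86% of the 3 with the lowest and 3.43% to 4.75% of the 6 between them.

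How evenly the reads were shared out between genes was measured in each library. The 10 most abundant genes took 6.43%, 6.48% and 5.38% of reads in mature libraries, against 8.99%, 7.73% and 9.22% in dikaryophase libraries. These values did not overlap, and the exact two-sided permutation test gave p = 0.1, the smallest that 3 against 3 libraries allow (0.2 after Benjamini-Hochberg adjustment over 4 library measures). A read was seen for 19226, 19143 and 19147 genes in mature libraries, against 19236, 19341 and 19279 in dikaryophase libraries, with the same exact p of 0.1 (adjusted 0.2). The fewest genes that together held 50% of the reads numbered 1277, 1371 and 1440 in mature libraries, against 1323, 1369 and 1283 in dikaryophase libraries, which overlapped (exact permutation p = 0.6, adjusted 0.6). Genes with at least 10 CPM numbered 11998 to 12366 in mature libraries and 12167 to 12309 in dikaryophase libraries (exact permutation p = 0.6, adjusted 0.6).

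The tetrad and mononuclear libraries, which are not part of the contrast, show where the called genes stood before. Of the 526 genes that fell at maturity, 369 (70.2%) had a higher mean in mononuclear than in tetrad anthers, as did 48.8% of all tested genes. As many as 226 (43.0%) were called higher in mononuclear than in tetrad anthers, where 4.97% of all tested genes were, and 43 (8.2%) were called lower, against 4.02% of all tested genes. Their median log2 fold change, mononuclear minus tetrad, was 0.82, against -0.01 over all tested genes. Read from the other side, 226 of the 869 genes higher in mononuclear than in tetrad anthers (26.0%) fell at maturity. The contrasts share no library, but the spread used for calling came from all 12. Calls made from the 6 mature and dikaryophase libraries alone, 414 falls (2.37% of those tested), gave 207 genes (50.0%) called higher in mononuclear than in tetrad anthers. The mononuclear against tetrad calls were still those of the fit of all 12 libraries, so the spread remained shared on that side.

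Among the 337 genes that rose, 53 (15.7%) were called higher and 35 (10.4%) lower in mononuclear than in tetrad anthers, beside 4.97% and 4.02% of all tested genes, and their median log2 fold change there was 0.03. The remaining 249 were called in neither direction. At maturity 327 of the 337 had their highest stage mean. The lowest mean was the tetrad one for 177, the mononuclear one for 139 and the dikaryophase one for 21. The choice of genes kept the dikaryophase from being highest and the mature stage from being lowest. Highest and lowest stages were not counted over all tested genes, so these counts are descriptions.

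Split by this earlier course, the genes that fell made up unlike shares of the reads. The 226 genes with an earlier rise held 0.775% ± 0.180 of tetrad reads, 8.88% ± 1.20 of mononuclear reads, 4.60% ± 0.535 of dikaryophase reads and 0.971% ± 0.0937 of mature reads (SD, n = 3 each). The choice of these genes fixed the higher mononuclear share and the lower mature share. Their median log2 fold change, mature minus dikaryophase, was -1.96, and 37 of them fell at least 16-fold. The 43 genes with an earlier fall held 1.83% ± 0.20 of tetrad reads, 0.536% ± 0.210 of mononuclear reads, 0.161% ± 0.0168 of dikaryophase reads and 0.0529% ± 0.00529 of mature reads, of which only the step between the mononuclear stage and the dikaryophase was not fixed by the choice of genes. The 257 genes called in neither direction held 5.97% ± 1.06 of tetrad reads, 6.27% ± 0.906 of mononuclear reads, 2.14% ± 0.301 of dikaryophase reads and 0.532% ± 0.0501 of mature reads.

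Among genes that rose, the 53 with an earlier rise held 0.0210% ± 0.00103 of tetrad reads, 0.0780% ± 0.0108 of mononuclear reads, 0.352% ± 0.0431 of dikaryophase reads and 0.984% ± 0.0894 of mature reads. The 35 with an earlier fall held 0.0863% ± 0.00299 of tetrad reads, 0.0223% ± 0.00798 of mononuclear reads, 0.0593% ± 0.0165 of dikaryophase reads and 0.208% ± 0.0295 of mature reads. The other 249 held 0.272% ± 0.000577 of tetrad reads, 0.243% ± 0.0151 of mononuclear reads, 0.660% ± 0.140 of dikaryophase reads and 2.15% ± 0.254 of mature reads (SD, n = 3 each). These classes rest on both calls, mature against dikaryophase and mononuclear against tetrad, so the shares at all 4 stages are descriptions and carry no test.

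**Figure D4:**
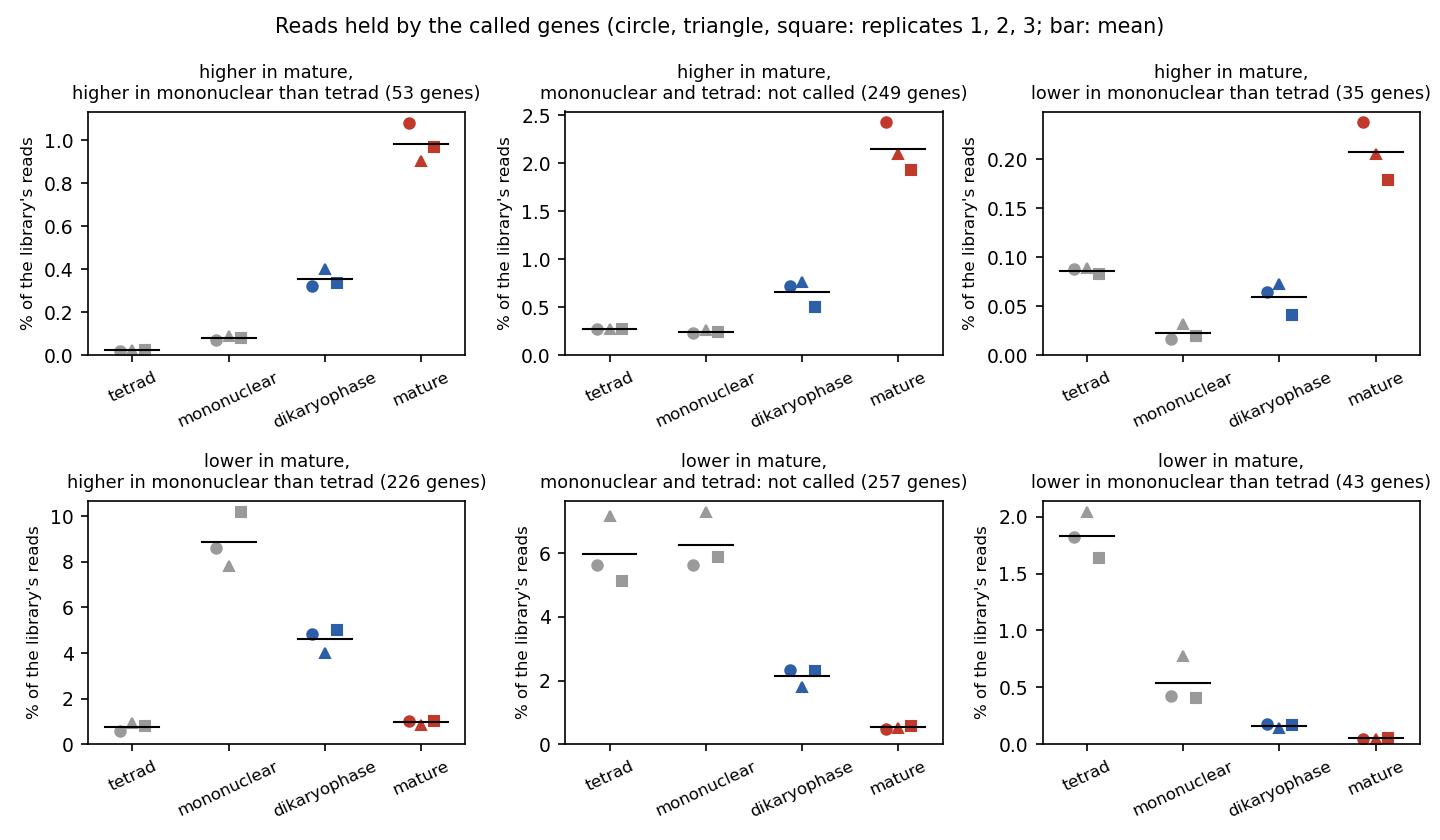
Percent of each library's reads held by the genes called higher in mature anthers (upper row) and lower in mature anthers (lower row), split by their call between mononuclear and tetrad anthers, for 12 libraries in stage order with replicates 1, 2 and 3 as circle, triangle and square and the mean as a bar. The 226 genes in the lower left panel reach a mean of 8.88% in mononuclear libraries.

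A further set of late genes was seen when only the 6 mature and dikaryophase libraries were fitted. That fit called 379 genes higher at maturity (2.17% of those tested) and 414 lower. Of the rises, 254 were shared with the fit of all 12 libraries, which is 75.4% of its 337 and 67.0% of the 379. The other 125 genes rose in the smaller fit with a median log2 fold change of 1.94, and 115 of them were also called higher by limma-voom on all 12 libraries. Their median standard error was 0.29 in the fit of 6 libraries and 0.94 in the fit of 12. Being called with 6 libraries and not with 12 favours genes with scattered early values, so their early spread describes the choice, with a median within-stage SD of 2.29 (log2) in mononuclear anthers, against 0.30 in mature and 0.42 in dikaryophase anthers.

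In most early libraries these genes had few reads. Their early levels, like their early spread, describe genes so chosen and carry no test. Under 1 CPM lay 104, 103 and 104 of the 125 in tetrad replicates 1, 2 and 3. In mononuclear replicates 1, 2 and 3 these counts were 98, 46 and 99. Of all 17484 tested genes, 923, 946 and 948 lay under 1 CPM in the tetrad libraries and 949, 770 and 1012 in the mononuclear ones. Mononuclear replicate 2 thus had the fewest such genes over all tested genes too. The median of the 125 genes was 0, 2.03 and 6.90 normalised reads in tetrad replicates 1, 2 and 3, and 28 of them had no read in any tetrad library. In mononuclear replicates 1, 2 and 3 the medians were 7.18, 118 and 6.31, and replicate 2 was the highest mononuclear library for 102 of the 125. Mature libraries had medians of 6124, 5724 and 4710 normalised reads, against 1501, 1672 and 987 in dikaryophase libraries. Together the 125 genes held 0.0484% ± 0.000961 of tetrad reads, 0.0538% ± 0.0643 of mononuclear reads, 1.03% ± 0.201 of dikaryophase reads and 3.73% ± 0.377 of mature reads (SD, n = 3 each). The 337 genes called with all 12 libraries held 3.34% ± 0.361 of mature reads. At maturity 61 of the 125 averaged at least 100 CPM. This count, and those of 28 and 102 genes above, were not made over all tested genes. Without mononuclear replicate 2, 56 of them were called in the fit of the remaining 11 libraries.

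**Figure D5:**
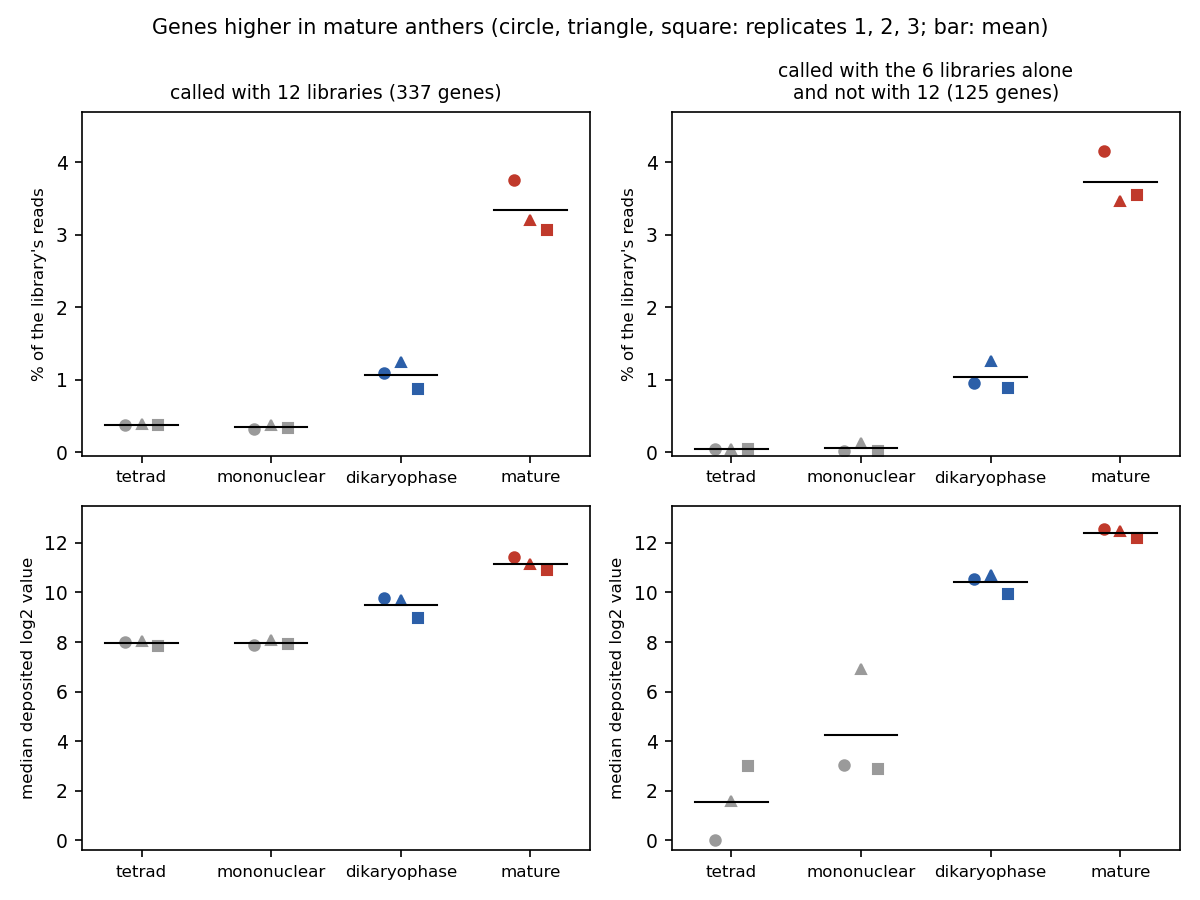
Percent of each library's reads (upper row) and median deposited log2 value (lower row) of genes higher in mature anthers, for the 337 called with 12 libraries (left) and the 125 called with the 6 mature and dikaryophase libraries alone (right), in stage order with replicates 1, 2 and 3 as circle, triangle and square and the mean as a bar. The medians of the 125 genes are 0 to 6.90 normalised reads in the tetrad libraries and 4710 to 6124 in mature ones.

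The libraries of a stage did not lie evenly on the called genes. Among the 526 genes that fell, mature replicate 3 was the highest mature library for 275 (52.3%), and among the 337 that rose it was the lowest for 217 (64.4%), so on both lists it lay towards the dikaryophase. Dikaryophase replicate 3 lay away from maturity. It was the highest dikaryophase library for 272 of the falls (51.7%) and the lowest for 238 of the rises (70.6%). Mature replicate 1 was the highest mature library for 244 of the rises (72.4%). These counts cover called genes, which the same libraries helped to choose. They were not made over all tested genes, so they do not show whether the order is particular to the called ones.

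The median level of the genes that rose was 2752, 2286 and 1925 normalised reads in mature replicates 1, 2 and 3, against 876, 832 and 496 in dikaryophase replicates 1, 2 and 3. That of the genes that fell was 266, 221 and 336 in the mature libraries, against 929, 970 and 1142 in the dikaryophase libraries. In both lists the medians of the stages did not overlap, which describes the choice of genes for a difference between these libraries. Mature replicate 3 lay nearest to the dikaryophase libraries and dikaryophase replicate 3 farthest from the mature ones. The medians of all tested genes were 1366, 1376 and 1322 normalised reads in mature replicates 1, 2 and 3. They were 1334, 1325 and 1324 in dikaryophase replicates 1, 2 and 3. Over all tested genes the median SD between libraries of a stage was 0.20 in mature and 0.19 in dikaryophase anthers (log2). With mature replicate 3 left out, 439 rises and 571 falls were called. With neither replicate 3 in the fit, 272 rises and 380 falls were called, of which 202 and 347 were among those called with all libraries. The part of these libraries in the calls was not tested further.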

How the data were processed

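Messenger RNA of 12 anther libraries was sequenced on an Illumina HiSeq instrument, per the labels. The authors deposited 1 table of log2 values per gene ID and library. Which aligner, counting tool, strand setting, genome build and annotation were used is not given in the sources used here, so reads of near-identical or overlapping genes may be split between them. In every library, 100% of the values, taken as 2 to their power less 1, were whole multiples of a single step within 0.01 reads. Whole reads were recovered by dividing by that step, and 0 columns were without a sample.

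The deposited log2 values were fitted with limma 3.58.1 in R 4.3.3, with a mean per stage over 12 libraries. The 8 residual degrees of freedom pool all 4 stages, gene variances were moderated along a trend on the level, and the contrast was mature minus dikaryophase. The filter asked for 1 CPM or more in 3 or more libraries, which kept at least 99.9% of each library's reads. P-values were adjusted by Benjamini-Hochberg over 17484 genes. Library measures were tested by exact permutation with Python 3.11.15. The limma function was tested on simulated counts for the same genes.

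Candidates for named genes were called, did not overlap between the stages and averaged at least 10 CPM. In each direction the gene with the largest change in normalised reads and the one with the smallest adjusted p at a log2 fold change of at least 2 were taken, with the 2 most abundant genes that did not pass. Members, lists and tests were chosen with earlier results of these data known. The lists of cell type markers need gene names and were not used. Alternatives changed the scaling, offset, filter, libraries, variance model, test and thresholds. The fit without both replicates 3, the alternatives for earlier courses, the counts of genes with a read or with at least 10 CPM, and the set of 125 late genes were chosen after seeing the data.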

Additional observations from a re-analysis of the deposited data

How the results depend on the processing

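The 863 calls became 1918 with adjusted p alone (868 rises, 1050 falls), 512 with an adjusted p under 0.01 (173, 339), 276 at a 4-fold threshold (83, 193) and 88 with treat (7, 81). Leaving out each of the 12 libraries gave 519 to 1024 calls, 174 to 439 rises and 345 to 591 falls. The highest total came without dikaryophase replicate 1 and the lowest without dikaryophase replicate 3. With limma-voom the rises were 546 (library size) and 547 (deposited scaling). The share of rises was 50.4% on the log2(CPM + 1) scale, 46.4% with a pseudocount of 10, 47.8% with the 6 libraries alone, 52.3% and 53.0% with limma-voom by library size and deposited scaling, 8.0% with treat, 45.3% with adjusted p alone, 33.8% under 0.01, 30.1% at 4-fold, and 32.4% to 43.5% with a library left out. The cause of these shifts was not tested beyond the spread of the early libraries given above. Calls between mononuclear and tetrad anthers ranged between 1349 and 1684 with a library left out.

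The share of falls with an earlier rise was 50.0% with the 6 libraries alone and 48.0% on the log2(CPM + 1) scale, and 43.7% to 45.6% in the other 3 fits tried. The genes holding 50% of reads differed by 37.7 between stages, and by -1.0 to 80.5 with a library left out, the first without mature replicate 3. The share of reads in the 10 most abundant genes differed by -2.55 percentage points. Cla011778 changed sign, to 0.06, with neither replicate 3. The log2 fold changes of Cla010382, Cla005445 and Cla002572 stayed called in all 30 alternatives, and that of Cla018671 was lost in 14.

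The labels do not say whether the shared replicate numbers pair the stages, and 3 libraries a stage cannot settle it. Deviations of same-numbered mature and dikaryophase libraries correlated between -0.064 and 0.364, and 2 of 6 libraries correlated best with their own number. The value of 0.364 was that of mature replicate 3 with dikaryophase replicate 3. Libraries of other numbers correlated between -0.296 and 0.282. A replicate block gave 919 calls, 371 of them rises and 548 falls (40.4% rises). Every library held at least 55347640 reads, so counting error matters mostly for genes with few reads.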
